A study of Homo sapiens with 6 samples.

Results

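Messenger RNA levels of 43 genes that build ribosomes in the nucleolus were followed in DLD1 cells, an established human colorectal adenocarcinoma line, exposed to the peptide SAH-BCL9B. The genes were taken from a fixed list of RNA polymerase I, small nucleolar RNP, rRNA processing and ribosome assembly factors, not from their values. The list was chosen with earlier results of these data known. Of the 43, 37 had a probe set on the array that names that gene alone, out of 19775 genes measured in that way. Cells given 10 µM SAH-BCL9B for 12 h (3 arrays) were compared with cells given the vehicle DMSO for 12 h (3 arrays). SAH-BCL9B is a stapled helical peptide modelled on the part of BCL9 that binds beta-catenin. All cells were the same unmodified line, which limits the results to 1 tumour line, and the labels give no control peptide. The labels describe 3 cultures per group and do not say whether these were grown or treated on separate days, so the p-values measure only the spread between these cultures.

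Ribosome production starts when RNA polymerase I transcribes the ribosomal DNA repeats in the nucleolus. Small nucleolar RNPs then modify the precursor rRNA, and a succession of assembly factors cuts it and packs it with ribosomal proteins into the small and large subunits. Many genes of this pathway are known to be activated by MYC, which binds the E-box CACGTG, and MYC is itself a target of Wnt/beta-catenin signalling in colorectal cells, so the comparison asks whether the set moved within 12 h of exposure to a peptide aimed at that signalling.

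POLR1A, the catalytic subunit of RNA polymerase I, was the only 1 of the 37 measured genes past the threshold, an adjusted p under 0.05 from limma (Benjamini-Hochberg over all 19775 genes), and it was higher in SAH-BCL9B. In this comparison 6.93% of all genes passed, against 2.7% of these 37. Higher calls made up 3.49% of all genes, against 1 of 37 here, and lower calls 3.43%, against 0 of 37. The median log2 change of the 37 genes was -0.07, and that of all genes was 0.02. Changes ran from -0.32 for WDR43 to 0.38 for POLR1A, and 22 of the 37 were negative (59.5%), against 44.9% of all genes. All 37 had a mean level above the median of all probe sets (log2 6.60), and among the 12261 genes above that level 10.5% passed in the same test.

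At an unadjusted p under 0.05, 7 of the 37 genes stood out (18.9%), 3 higher and 4 lower, against 21.4% of all genes and 30.3% of the genes above the level filter. The SAH-BCL9B and vehicle arrays did not overlap in 13 of the 37 (35.1%), 5 with SAH-BCL9B higher and 8 with it lower, against 28.3% of all genes and 39.6% of the genes above the level filter. Against the genes above the level filter both shares were lower, and no test was made of either difference. The 95% interval of the change lay wholly within a 1.5-fold difference in either direction (0.585 on the log2 scale) for 34 of the 37 genes (91.9%), against 87.2% of all genes. It reached beyond 1.5-fold for POLR1A, UTP20 and NIP7. A missed threshold does not show that a level was unchanged, and these intervals give the sizes that the data allow.

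**Figure D1:**
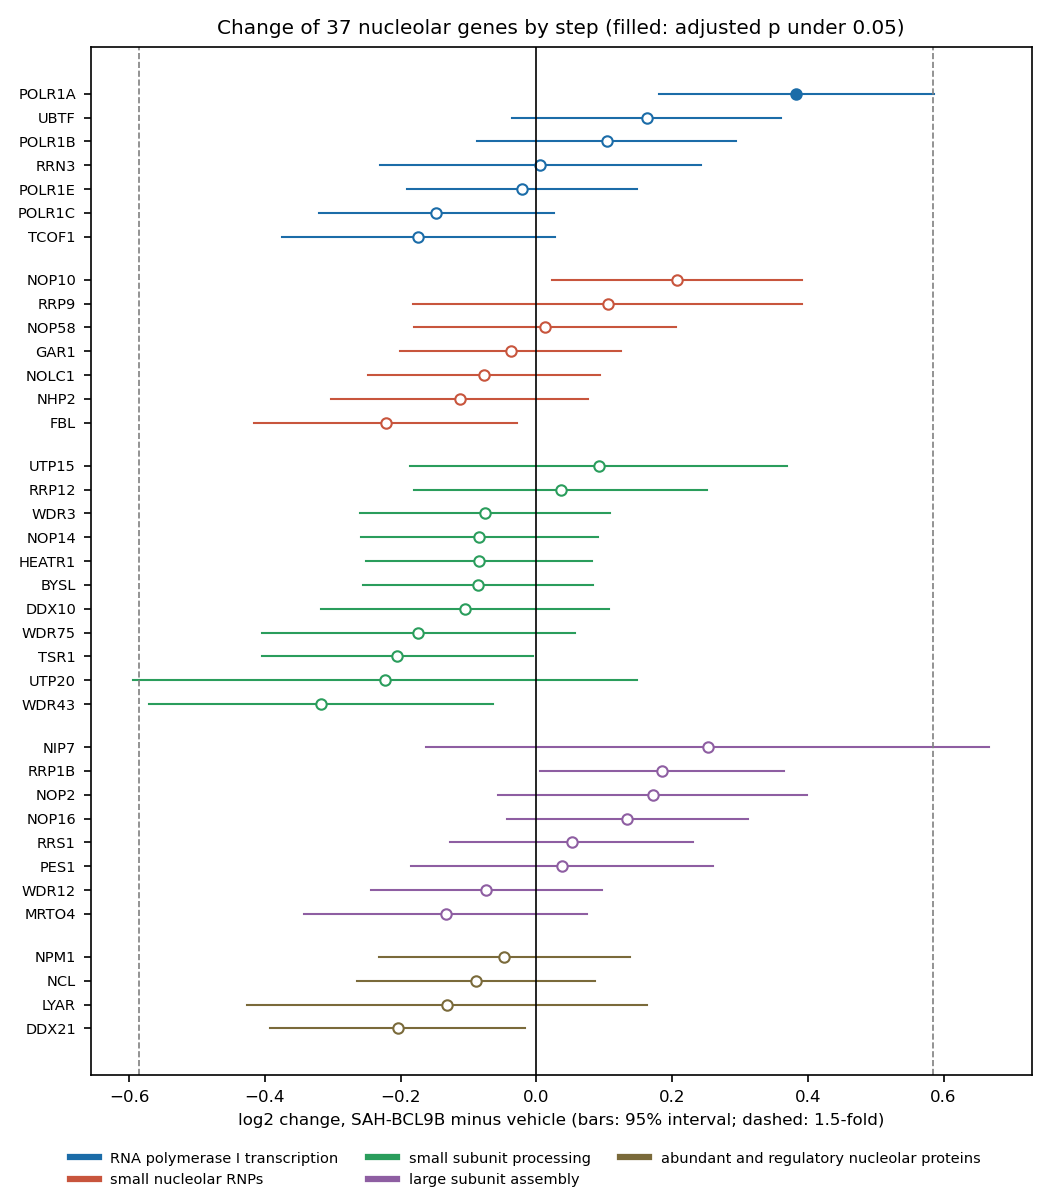
Log2 change of each of the 37 measured genes, SAH-BCL9B minus vehicle, on the x axis, with the genes on the y axis grouped and coloured by step of ribosome production. Points are limma estimates from 3 arrays a group, bars are 95% intervals, dashed lines mark a 1.5-fold difference and the filled point, POLR1A, is the gene past an adjusted p of 0.05.

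**Figure D2:**
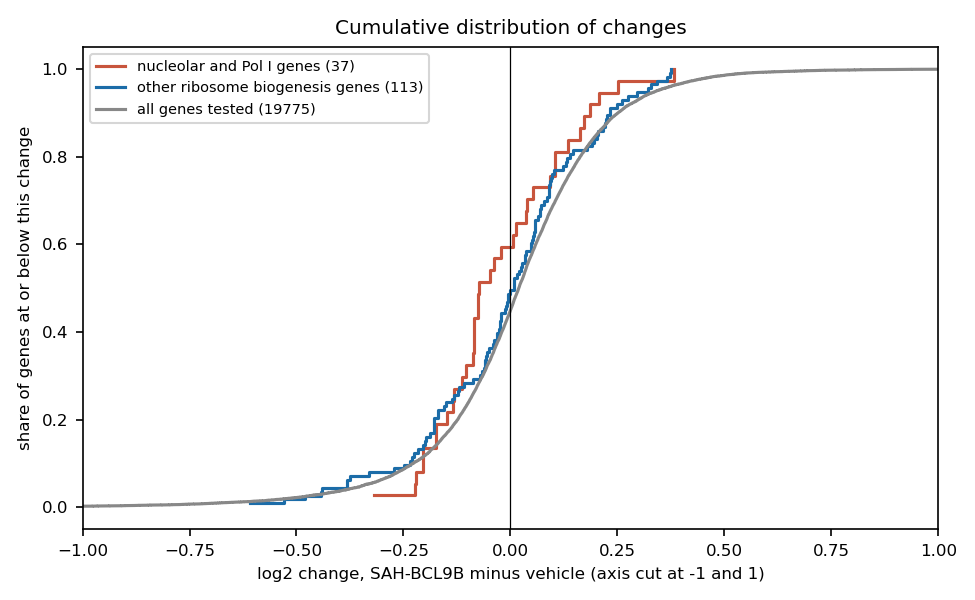
Cumulative share of genes (y axis) at or below a given log2 change (x axis, cut at -1 and 1) for the 37 nucleolar genes, 113 other ribosome biogenesis genes and all 19775 genes tested. The nucleolar genes lie between -0.32 and 0.38 with a median of -0.07, and the other biogenesis genes have a median of 0.01.

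Promoter sequence, which the choice of genes did not use, was searched for the E-box. RefSeq promoter windows (GRCh38.p14, 250 bases before to 50 after an annotated gene start) were held for 35 of the 43 genes, with 45 windows in all because some genes have several starts. The E-box CACGTG, which reads the same on both strands, was present in 15 of the 35 genes (42.9%), against 8.77% of 27305 genes with a window and 12.7% of those above the level filter. By window it was in 16 of 45 (35.6%), against 7.26% of all 35116 windows. In 14 of the 15 genes a match lay within 50 bases of a gene start. Because windows end 50 bases after the start, every match after a start falls in this count. The same share over all promoters was not counted. The matches are shown for the genes with the largest positive or negative change of their step that carry one, as 30-base windows on the gene's own strand with the E-box in capitals.
FBL: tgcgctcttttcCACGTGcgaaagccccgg
NOP10: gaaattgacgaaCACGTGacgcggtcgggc
WDR43: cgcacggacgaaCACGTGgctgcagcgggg
MRTO4: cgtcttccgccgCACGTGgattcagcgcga
DDX21: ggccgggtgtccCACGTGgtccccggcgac
The FBL window is chr19:39846356-39846385 on the minus strand, with the E-box from position 7 after the gene start. The NOP10 window is chr15:34343130-34343159, also on the minus strand, with the E-box from position -11. The windows of WDR43 (chr2:28894658-28894687), MRTO4 (chr1:19251807-19251836) and DDX21 (chr10:68956604-68956633) are on the plus strand, with the E-box from positions 4, 15 and -31. A match describes these letters and is not a binding site shown by these data.

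Both signs occurred with and without the E-box. The 13 measured genes with a match had a median log2 change of -0.09, with 9 negative, 4 positive and none past the adjusted threshold. The 17 measured genes with a promoter window and no match had a median of -0.07, with 10 negative and 7 positive, and POLR1A among them. No test was made between these groups.

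**Figure D3:**
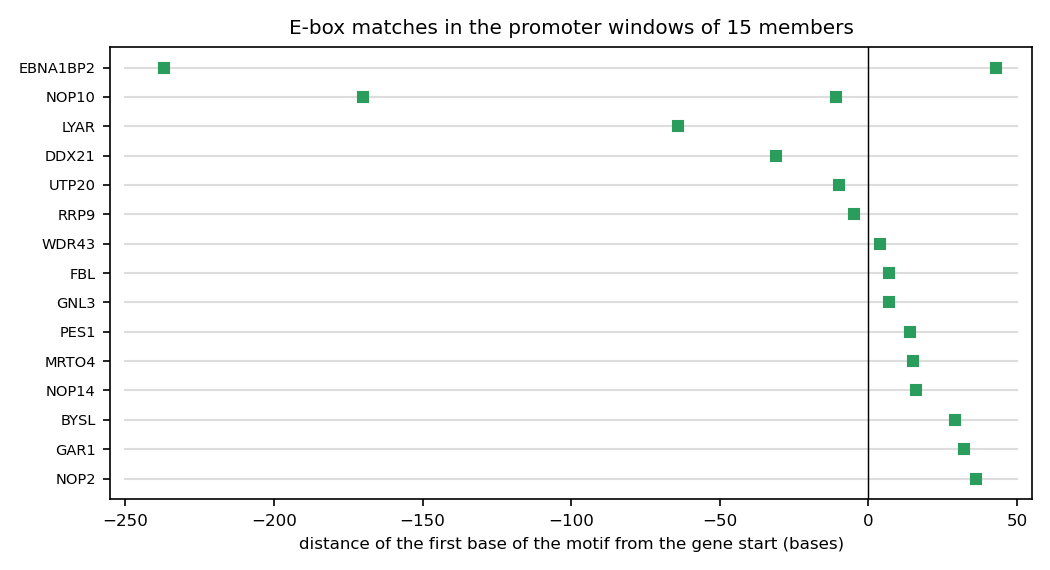
Positions of the E-box matches in the promoter windows of 15 genes, 1 row a gene; the x axis is the distance in bases of the first base of the motif from the gene start of its window. A match lies within 50 bases of a start in 14 of the 15 genes, and each window ends 50 bases after its start. NOP10 and EBNA1BP2 also hold one further upstream.

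Motifs of TCF factors, the DNA-binding partners of beta-catenin, were searched in the same windows, on both strands. CTTTGAT was found in 1 of 35 genes (2.9%), POLR1A, against 3.18% of all genes with a window and 2.11% of those above the level filter. CTTTGAA was found in 1 of 35, DDX21, against 5.47% and 4.0%. The 250 bases before the POLR1A gene start (chr2:86105887-86106136, minus strand, GRCh38.p14) are printed because POLR1A was the gene that passed, with CTTTGAT in capitals at position -117.
POLR1A: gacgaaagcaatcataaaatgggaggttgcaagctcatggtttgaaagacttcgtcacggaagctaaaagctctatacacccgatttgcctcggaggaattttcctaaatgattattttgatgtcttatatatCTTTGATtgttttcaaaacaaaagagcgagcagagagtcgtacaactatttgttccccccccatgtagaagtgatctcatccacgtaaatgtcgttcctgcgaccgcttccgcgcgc
Neither a match nor its absence bears on TCF binding at these genes.

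Transcription of ribosomal DNA was represented by 7 genes, all measured: 1 rose (14.3%), none fell and 6 did not pass. Of all genes 6.93% passed, and of the genes above the level filter 10.5%. The median log2 change of the 7 was 0.01. POLR1A had log2 levels of 9.44, 9.58 and 9.36 in SAH-BCL9B 1, 2 and 3, against 8.99, 9.13 and 9.11 in vehicle 1, 2 and 3. Every SAH-BCL9B array was above every vehicle array. The group means were 9.46 ± 0.11 and 9.08 ± 0.07 (SD, n = 3 each), a rise of 0.38 ± 0.09 (SE) or 1.30-fold (limma adjusted p = 0.0409).

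The POLR1A call held in 5 of 17 alternatives and rested on 1 of its 3 probe sets and on all 6 arrays. The other probe sets of the gene had changes of -0.04 ± 0.15 and 0.01 ± 0.09 (SE), and their SAH-BCL9B and vehicle means were 8.80 and 8.83 for the first and 8.51 and 8.50 for the other. The mean of the 3 probe sets gave 0.12 (limma adjusted p = 0.479; the alternatives spanned 0.0123 to 0.479). The brightest probe set missed the threshold whichever array was left out, at an adjusted p of 0.0643 without SAH-BCL9B 2 to 0.174 without vehicle 1, with changes of 0.32 to 0.43. With the ACTB 3' minus 5' difference of each array, a measure of RNA or cDNA quality, as a covariate, the change was 0.30 and missed the threshold too (adjusted p = 0.0586).

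TCOF1, which encodes treacle, a cofactor of RNA polymerase I, had the most negative value of this step. Its levels were 9.79, 10.01 and 9.79 in the SAH-BCL9B arrays, against 10.05, 10.03 and 10.03 in the vehicle arrays. The groups did not overlap, but SAH-BCL9B 2 lay just under the vehicle arrays. The difference was -0.17 ± 0.09 (SE) and did not pass (limma adjusted p = 0.307), and its 3 probe sets ran from -0.35 to -0.02.

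The remaining subunits and factors of RNA polymerase I did not pass. POLR1B, which encodes the second largest subunit, had means of 10.47 ± 0.08 in SAH-BCL9B and 10.36 ± 0.08 in vehicle (SD, n = 3 each). The difference was 0.10, and the other probe sets of POLR1B ran from -0.21 to 0.05. POLR1C, which encodes a subunit shared with RNA polymerase III, was at 10.29 ± 0.01 and 10.44 ± 0.07, a difference of -0.15, with no overlap of the groups. POLR1E, which encodes a subunit that acts with the initiation machinery, was at 8.97 ± 0.03 and 8.99 ± 0.06, a difference of -0.02. Its other, dimmer probe sets had larger changes of -0.24 ± 0.09 and -0.22 ± 0.12 (SE). RRN3, the factor that brings the polymerase to the promoter, was at 9.81 ± 0.14 and 9.81 ± 0.12, a difference of 0.01. UBTF, the factor that binds along the active ribosomal DNA, was at 9.11 ± 0.06 and 8.94 ± 0.11, a difference of 0.16 with no overlap. The other 4 probe sets of UBTF had changes of -0.15 to -0.02, opposite in sign to the brightest. Adjusted p-values from limma lay between 0.316 for POLR1C and 0.987 for RRN3.

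Small nucleolar RNPs, the particles that modify and help cut precursor rRNA, were represented by 9 genes, of which 7 were measured and none passed. An unadjusted p under 0.05 was seen in 2 (28.6%), against 21.4% of all genes and 30.3% of those above the level filter. The median log2 change of the 7 was -0.04. NOP10, a core protein of the H/ACA particles that guide pseudouridylation, had levels of 13.10, 13.17 and 13.00 in the SAH-BCL9B arrays, against 12.85, 12.86 and 12.94 in the vehicle arrays. All SAH-BCL9B arrays were above all vehicle arrays, with SAH-BCL9B 3 and vehicle 3 nearest to each other. The difference was 0.21 ± 0.08 (SE; limma adjusted p = 0.180).

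FBL, which encodes fibrillarin, the methyltransferase of the box C/D particles, lay on the other side. Its levels were 12.52, 12.62 and 12.40 in the SAH-BCL9B arrays, against 12.77, 12.68 and 12.75 in the vehicle arrays. All SAH-BCL9B arrays were below all vehicle arrays. The difference was -0.22 ± 0.08 (SE; limma adjusted p = 0.173). NOP10 and FBL passed where the variance was allowed a trend with robust fitting (limma adjusted p = 0.0358 and 0.0403). In that fit 12.4% of all genes passed. Over the alternatives the limma adjusted p ran from 0.0358 to 0.437 for NOP10 and from 0.0403 to 0.421 for FBL.

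The partners of these genes in the same particles had differences nearer to 0. In the H/ACA particles, GAR1 was at 10.97 ± 0.03 in SAH-BCL9B and 11.01 ± 0.03 in vehicle (SD, n = 3 each), and NHP2 at 12.89 ± 0.09 and 13.00 ± 0.06, differences of -0.04 and -0.11. Among box C/D proteins, NOP58, a core scaffold, was at 12.68 ± 0.11 and 12.67 ± 0.05, a difference of 0.01. RRP9, a protein specific to the U3 particle, was at 8.31 ± 0.25 and 8.20 ± 0.04, a difference of 0.10, and its level in SAH-BCL9B 2 (8.59) stood 0.43 above the mean of the other SAH-BCL9B arrays. NOLC1, a chaperone of these particles, was at 12.69 ± 0.05 and 12.77 ± 0.05, a difference of -0.08. Adjusted p-values from limma lay between 0.513 for NHP2 and 0.964 for NOP58.

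The remaining members of this step could not be measured by themselves. NOP56, a core box C/D protein, was on 2 probe sets that the annotation lists together with the small RNA genes SNORD57, SNORD86, SNORD110 and MIR1292. DKC1, the pseudouridine synthase of the H/ACA particles, was on 3 probe sets listed together with SNORA56 and MIR664B. No value is given for either.

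Processing of the small subunit rRNA and its assembly was represented by 11 genes, all measured, and none passed. An unadjusted p under 0.05 was seen in 2 (18.2%), against 21.4% of all genes and 30.3% of those above the level filter. The median log2 change of the 11 was -0.09, with 9 negative (81.8%), against 44.9% of all genes. No test was made of these shares. WDR43, a component of the early complex of the small subunit processome that is tied to ribosomal DNA transcription, had the most negative value of all 37 genes. Its levels were 10.32, 10.00 and 10.10 in the SAH-BCL9B arrays, against 10.49, 10.58 and 10.32 in the vehicle arrays. SAH-BCL9B 1 and vehicle 3 had about the same level, so the groups overlapped there. The difference was -0.32 ± 0.11 (SE; limma adjusted p = 0.137). WDR43 was past the threshold with the variance trend (limma adjusted p = 0.0492) and with array SD as a covariate (0.0271). In those fits 12.4% and 12.3% of all genes passed. For WDR43 the alternatives spanned 0.0271 to 0.345.

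Among the measured genes of this step, the other components of that early complex had smaller differences. That comparison leaves out UTP4, a small subunit gene read from the separate list described below. UTP4 had a larger change of -0.44 and passed (limma adjusted p = 0.0256). UTP15 had the most positive value of the step, with levels of 9.46, 9.11 and 9.40 in the SAH-BCL9B arrays, against 9.19, 9.40 and 9.10 in the vehicle arrays. The groups overlapped. Its difference was 0.09 ± 0.12 (SE; limma adjusted p = 0.760), and its other probe set had -0.27 ± 0.11. WDR75 was at 10.05 ± 0.14 in SAH-BCL9B and 10.23 ± 0.11 in vehicle (SD, n = 3 each), a difference of -0.17. HEATR1 was at 11.69 ± 0.03 and 11.77 ± 0.05, a difference of -0.08, with 4 of its 5 probe sets negative. Its groups did not overlap, but SAH-BCL9B 1 (11.72) lay just under vehicle 3 (11.73).

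Later factors of the small subunit were also without a call. WDR3, of a further processome complex, was at 10.94 ± 0.06 in SAH-BCL9B and 11.01 ± 0.08 in vehicle (SD, n = 3 each). NOP14, another processome component, was at 9.87 ± 0.01 and 9.96 ± 0.08, and BYSL, which encodes bystin, a small subunit assembly factor, at 9.80 ± 0.05 and 9.88 ± 0.04. The differences were -0.08, -0.08 and -0.09, and the arrays of BYSL did not overlap. DDX10, an RNA helicase, was at 10.83 ± 0.13 and 10.94 ± 0.07, a difference of -0.10. RRP12, which acts in maturation and export of the precursors, was at 9.55 ± 0.13 and 9.51 ± 0.09, a difference of 0.04. TSR1, a factor of late small subunit precursors, was at 11.31 ± 0.11 and 11.52 ± 0.06, a difference of -0.20 with no overlap, and 3 of its 4 probe sets were negative. UTP20, a large processome component, was at 9.93 ± 0.35 and 10.15 ± 0.08, a difference of -0.22. Its level in SAH-BCL9B 2 (9.53) stood apart from 10.17 and 10.08 in SAH-BCL9B 1 and 3, and the difference was -0.02 without that array. Adjusted p-values from limma for WDR75, HEATR1 and these 7 genes lay between 0.221 for TSR1 and 0.894 for RRP12.

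Assembly of the large subunit was represented by 11 genes, of which 8 were measured and none passed. An unadjusted p under 0.05 was seen in 1 (12.5%), against 21.4% of all genes and 30.3% of those above the level filter. The median log2 change of the 8 was 0.09, with 6 positive and 2 negative (25%, against 44.9% of all genes). No test was made of these shares. NIP7, a factor needed for rRNA processing, had the most positive value and the widest spread of the step. Its levels were 10.64, 10.05 and 10.75 in the SAH-BCL9B arrays, against 10.23, 10.39 and 10.07 in the vehicle arrays. SAH-BCL9B 1 and 3 were above all vehicle arrays, and SAH-BCL9B 2 was below all of them. The difference was 0.25 ± 0.18 (SE; limma adjusted p = 0.501). Without SAH-BCL9B 2 it was 0.47 and passed (limma adjusted p = 0.0466), as did 7.21% of all genes. With the ACTB 3' minus 5' difference as a covariate it was 0.49 (0.0343), where 7.52% of all genes passed. For NIP7 the alternatives spanned 0.0343 to 0.798.

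MRTO4, which occupies the place of a stalk protein on the immature subunit, had the most negative value of the step. Its levels were 10.24, 10.16 and 10.29 in the SAH-BCL9B arrays, against 10.51, 10.29 and 10.28 in the vehicle arrays. Vehicle 1 stood clear of the SAH-BCL9B arrays. Vehicle 2 (10.292) lay just above the highest of them, SAH-BCL9B 3 (10.285), and vehicle 3 (10.283) just below it. The difference was -0.13 ± 0.09 (SE; limma adjusted p = 0.476).

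The other 6 measured large subunit genes did not pass either. PES1, which encodes pescadillo, was at 9.87 ± 0.16 in SAH-BCL9B and 9.83 ± 0.05 in vehicle (SD, n = 3 each), and its complex partner WDR12 was at 11.25 ± 0.06 and 11.33 ± 0.02. The differences were 0.04 and -0.07. The arrays of WDR12 did not overlap, but SAH-BCL9B 1 (11.30) lay just under vehicle 2 (11.31). NOP2, an rRNA methyltransferase, was at 10.10 ± 0.17 and 9.93 ± 0.04, a difference of 0.17. NOP16, an assembly factor, was at 11.22 ± 0.08 and 11.08 ± 0.04, a difference of 0.13 with no overlap, though 1 of its 4 probe sets was negative. RRS1, a factor that brings the 5S particle to the precursor, was at 11.17 ± 0.06 and 11.12 ± 0.06, a difference of 0.05. RRP1B, a nucleolar processing protein, was at 12.41 ± 0.04 and 12.22 ± 0.08, a difference of 0.19 with no overlap, and both of its probe sets were positive. Adjusted p-values from limma lay between 0.220 for RRP1B and 0.891 for PES1.

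Of the remaining large subunit genes, BOP1, the third protein of the PES1 and WDR12 complex, was on 2 probe sets listed together with MIR7112. PPAN was on 1 probe set listed together with the read-through gene PPAN-P2RY11. No probe set in the annotation used here was listed for EBNA1BP2. These 3 genes have no value here.

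Abundant and regulatory nucleolar proteins were represented by 5 genes, of which 4 were measured and none passed. An unadjusted p under 0.05 was seen in 1 (25%), against 21.4% of all genes and 30.3% of those above the level filter. GNL3, which encodes nucleostemin, was not listed in the annotation used here. All 4 measured genes had a negative value, against 44.9% of all genes, with a median log2 change of -0.11. No test was made of these shares. DDX21, an RNA helicase that couples transcription and processing of rRNA, had levels of 12.87, 12.82 and 12.87 in the SAH-BCL9B arrays, against 13.12, 13.12 and 12.94 in the vehicle arrays. All SAH-BCL9B arrays were below all vehicle arrays. The difference was -0.20 ± 0.08 (SE; limma adjusted p = 0.196), and its other probe set had -0.30 ± 0.09. DDX21 was past the threshold with the variance trend (limma adjusted p = 0.0433), as were 12.4% of all genes. For DDX21 the alternatives spanned 0.0433 to 0.480.

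The step had no positive value, and NPM1, which encodes nucleophosmin, a shuttling chaperone of ribosomal particles, was nearest to 0. Its levels were 14.92, 14.87 and 14.98 in the SAH-BCL9B arrays, against 15.05, 14.98 and 14.88 in the vehicle arrays. The groups overlapped, and the difference was -0.05 ± 0.08 (SE; limma adjusted p = 0.826). NCL, which encodes nucleolin, an abundant protein of ribosomal chromatin and precursor rRNA, was at 13.73 ± 0.07 in SAH-BCL9B and 13.82 ± 0.04 in vehicle (SD, n = 3 each), a difference of -0.09. LYAR, a nucleolar regulator of processing, was at 10.40 ± 0.24 and 10.54 ± 0.11, a difference of -0.13. Its level in SAH-BCL9B 2 was 10.13, against 10.58 and 10.49 in SAH-BCL9B 1 and 3, and the difference was 0.004 without that array.

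**Figure D4:**
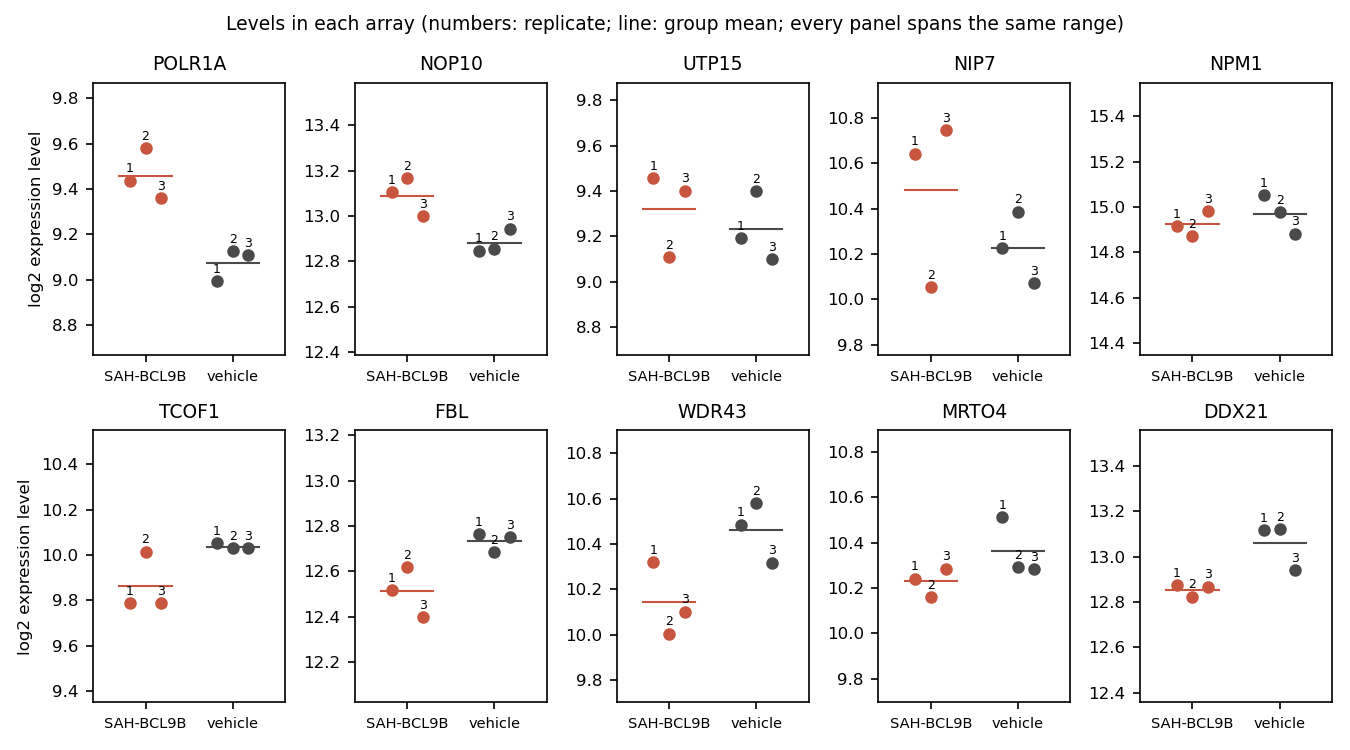
Log2 expression level (y axis, every panel spanning the same range) in each array for the genes with the most positive and most negative value of each step. Points are arrays numbered by replicate, SAH-BCL9B left and vehicle right, and lines are group means; the groups are apart for POLR1A, NOP10, TCOF1, FBL and DDX21, and SAH-BCL9B 2 lies away from SAH-BCL9B 1 and 3 for NIP7 and UTP15.

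Array SAH-BCL9B 2 stood apart most often within these genes. It was the lowest or the highest of the 6 arrays in 56.8% of the 37 genes, against 47.7% of all genes. It departed from the mean of the other arrays of its group by more than 0.3 in 5 genes, downward in NIP7 (-0.64), UTP20 (-0.59), LYAR (-0.41) and UTP15 (-0.32) and upward in RRP9 (0.43). SAH-BCL9B 1 and SAH-BCL9B 3 did so in 1 gene each, and no vehicle array did. Its ACTB 3' minus 5' probe set difference was 0.74, against 1.20 to 1.38 in the other 5 arrays. The same difference for GAPDH did not set it apart, at 0.14 against 0.09 to 0.17 in the other 5. Its SD over all probe sets was 2.42, against 2.43 in vehicle 3 and 2.47 to 2.49 in the remaining arrays. The part of RNA quality in these departures was not tested.

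More than 1 probe set was present for 23 of the 37 genes, and all of them had the same sign in 12 of the 23. In the other 11 the signs differed, among them POLR1A, POLR1B, UBTF, UTP15, NCL and NPM1. Some differing probe sets were dim: that of NCL had means of 5.69 in SAH-BCL9B and 5.53 in vehicle, under the median of all probe sets. Others were bright, such as that of NPM1 (13.24 and 13.21) and that of POLR1A (8.80 and 8.83). When limma was run on all 41091 single-gene probe sets, 0 of the 81 that belong to the 37 genes passed, against 3.78% of all. An unadjusted p under 0.05 was seen in 10 of the 81 (12.3%), against 17.5% of all. The 12 genes with 1 sign included DDX21, TCOF1, NIP7 and RRP1B, none with a call.

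**Figure D5:**
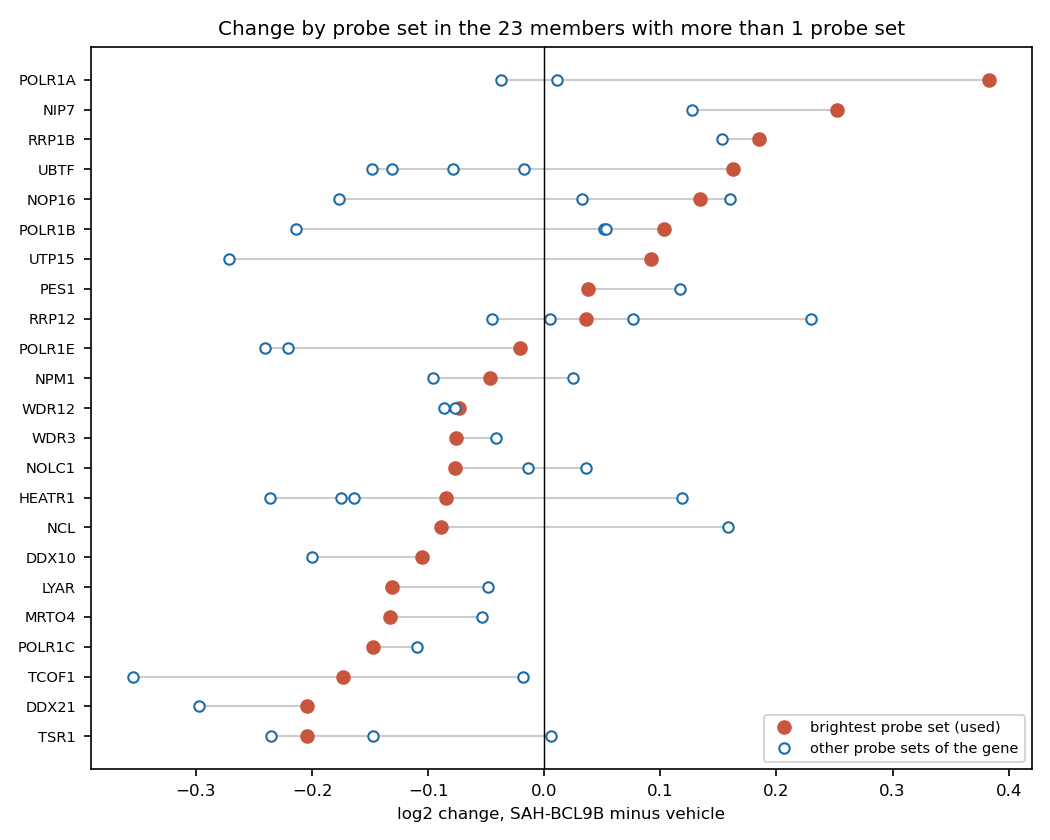
Log2 change, SAH-BCL9B minus vehicle (x axis), of every probe set of the 23 genes that have more than 1, with the genes on the y axis ordered by the brightest probe set. Filled points are the probe sets used and open points the others; the other probe sets of POLR1A lie at -0.04 and 0.01, away from 0.38.

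Other genes of the pathway were read from a separate list of 115, of which 113 were measured. Of these, 2 rose, 6 fell and 105 did not pass (7.08% called), against 6.93% of all genes, and the median log2 change was 0.01. All 113 lay above the level filter, where 10.5% of genes passed, and no test was made of these differences. By step, none passed among 9 further RNA polymerase I genes (1 at an unadjusted p under 0.05) and 9 small nucleolar RNP assembly genes (0). Of 42 small subunit genes 1 rose and 3 fell (9.52% called), and of 40 large subunit genes 1 rose and 2 fell (7.5%). Of 13 genes of the rRNA-trimming exosome and its helpers 1 fell (7.69%).

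EXOSC8, which encodes a ring subunit of the exosome, fell most, with levels of 11.34, 11.51 and 11.49 in the SAH-BCL9B arrays, against 12.08, 12.05 and 12.02 in the vehicle arrays. The groups were far apart compared with their spread. The change was -0.61 ± 0.08 (SE; limma adjusted p = 0.00609), and EXOSC8 passed under all 17 alternatives (highest adjusted p = 0.0468). RSL24D1, a placeholder protein of the immature large subunit, changed by -0.53 ± 0.11 and WDR18, of a large subunit remodelling complex, by -0.48 ± 0.07 (adjusted p = 0.0289 and 0.0105). WDR36, UTP4 and NOB1, all of the small subunit, completed the 6 that fell, with changes of -0.44, -0.44 and -0.38. The 2 that rose were FTSJ3, an RNA methyltransferase of rRNA processing (0.36 ± 0.09, adjusted p = 0.0450), and UTP14A, a small subunit processome gene (0.34 ± 0.07, adjusted p = 0.0318).

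With the replicate number as a block, EXOSC8 was the only 1 of the 8 that passed. Without vehicle 1 the count that fell was 1 and the count that rose 0, and without SAH-BCL9B 2 they were 7 and 3. FTSJ3 lost its call whichever array was left out (highest adjusted p = 0.154), UTP14A without any array but SAH-BCL9B 2 (0.127), RSL24D1 without vehicle 1, 2 or 3 or SAH-BCL9B 1 (0.122) and WDR18 without vehicle 1 (0.0647).

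The cells showed the markers of their label. All 8 markers of colorectal epithelium were above the median of all probe sets, from log2 6.89 to 15.2, and 1 of 5 fibroblast, 0 of 3 leukocyte and 1 of 3 endothelial markers were. Array medians ran from 6.58 to 6.62. Because arrays were normalized to one another, a change shared by most genes, or a change in total RNA per cell, would not be seen, and fewer copies per cell and fewer expressing cells cannot be told apart. Levels of rRNA and ribosomes were not measured.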

How the data were processed

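Log2 expression values of 54675 probe sets on Affymetrix U133 Plus 2.0 arrays, 6 samples in all, were deposited by the authors in a single table; RMA and affy are named per the submitters' processing notes, with no versions given there. RMA corrects background, makes the arrays alike in distribution and shrinks changes of dim probe sets. No raw intensities were used, so signal over background is unknown, and only the number of arrays can be given for precision.

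Probe sets were named by GEO's platform annotation, checked by Entrez ID against RefSeq (GRCh38.p14). Of them 41091 named 1 gene. Each of 19775 genes took the single-gene probe set with the highest mean over the 6 arrays. Groups came from the sample titles. SAH-BCL9B minus vehicle was tested across all genes by lmFit and eBayes of limma 3.58.1 (R 4.3.3), with 3.94 prior degrees of freedom and without covariates. P-values were adjusted by Benjamini-Hochberg and called under 0.05. Errors are moderated SEs of changes or SDs of levels. The procedure was run on simulated data with planted changes larger than any seen in the members. That run does not show whether changes of the members' size would be found. Promoter motifs were counted in Python 3.11.15, and plots used matplotlib 3.10.9.

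The members, lists, named-gene rule and alternatives were chosen with earlier results of these data known. Every member is described. Levels in each array are given for members past the threshold and for the most positive and most negative of each step. Of the 115 other pathway genes up to 3 with the largest change past the threshold in each direction are given. Naming WDR36, UTP4 and NOB1 and noting arrays that stand apart came after values were seen. Same-numbered arrays correlated between -0.316 and 0.239 in their deviations from group means, and SAH-BCL9B 2 and vehicle 3 at 0.417. With 3 arrays a group, these values cannot settle whether cultures were paired. The labels state no pairing, and none was used in the main test.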

Additional observations from a re-analysis of the deposited data

How the results depend on the processing

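Each result was recomputed under 17 alternatives. Of the 37 members, 31 passed in none of them, and POLR1A, FBL, NOP10, WDR43, NIP7 and DDX21 passed in at least 1. The number of all genes past the threshold was 296 (1.5%) with the replicate number as a block. With a filter on low values it was 2271 (18.5% of those kept). It was 2456 (12.4%) with a variance trend and robust fit, 2172 (11%) with array weights and 2441 (12.3%) with array SD as a covariate. With 1 array left out it ran from 316 (1.6%) to 1426 (7.21%).

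The count of members higher was 0 with the replicate block, a gene's probe sets averaged, each probe set tested separately, a second quantile normalization, or vehicle 3 and SAH-BCL9B 2 left out, 2 with the variance trend, and 0 to 1 with 1 array left out. With the ACTB covariate, and without SAH-BCL9B 2, the 1 member higher was NIP7 in place of POLR1A. The count lower was 3 with the variance trend, 1 with array SD as a covariate and 0 otherwise. The median of the members was -0.041 with the ACTB covariate, where that of all genes was -0.017. It was -0.065 to -0.042 with 1 array left out, where that of all genes was -0.011 to 0.042. Without SAH-BCL9B 2 the members were at -0.045 and all genes at -0.011. The number of other pathway genes that rose was 0 with the block or every probe set by itself, 1 with the second normalization or both arrays left out, 7 with the filter, 9 with the variance trend, 5 with array weights, 8 with array SD, and 0 to 3 with 1 array left out. The number that fell was 1 with the block, 11 with the variance trend, 10 with array weights or array SD, and 1 to 7 with 1 array left out. The causes were not tested.

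The sign held throughout for 25 of 37 members. Values of opposite sign were at most 0.09 in size, with no adjusted p under 0.677. With a gene's probe sets averaged they were -0.0013 for POLR1B, -0.042 for UBTF, -0.090 for UTP15 and 0.035 for NCL. With the second normalization they were -0.018 for RRN3 and -0.0011 for NOP58, with array SD -0.0098 for RRN3 and with array weights -0.023 for PES1. With the ACTB covariate they were -0.045 for RRP9, -0.026 for RRP12, -0.054 for PES1 and 0.017 for LYAR. When arrays were left out, 1 at a time or vehicle 3 with SAH-BCL9B 2, values of both signs were seen in 8 members. They spanned -0.041 to 0.011 for POLR1E, -0.058 to 0.086 for RRN3, -0.033 to 0.072 for NOP58, -0.039 to 0.181 for RRP9, -0.343 to 0.0040 for UTP20, -0.021 to 0.105 for RRP12, -0.074 to 0.109 for PES1 and -0.221 to 0.0036 for LYAR.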
